A study of Mus musculus with 2 samples.

Results

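The genes described are 9 receptors of blood cells: Kit, which early red-cell progenitors also use, and receptors known mainly from other lineages, namely the tyrosine kinases Flt3 and Csf1r and the cytokine receptor chains Csf2rb, Csf3r, Il3ra, Il7r, Il6ra and Ifngr1. They are 9 of the 21938 protein-coding genes of the annotation, chosen by name. An accessible region belonged to a gene when it lay in the gene body, or when the gene's start was the nearest protein-coding start and lay within 100 kb. The cells were primary mouse CFU-E, red-cell progenitors that need erythropoietin, from adult male C57BL/6J mice aged 5 to 6 weeks, with no treatment or genetic change given; how the cells were isolated is not given in the sources used here. There were 2 ATAC-seq libraries of 50000 cells each, numbered as biological replicates 1 and 2. ATAC-seq marks open DNA by the insertions of the Tn5 transposase. Both libraries belong to 1 group, so no condition was set against another.

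The receptors fall into a pair of families that signal differently. Kit, Flt3 and Csf1r are kinases of the same class, which pair up and phosphorylate each other when stem cell factor, Flt3 ligand, or CSF-1 and IL-34 bind. The cytokine receptor chains have no kinase of their own and signal through JAK kinases and STAT factors. Early erythroid progenitors depend on Kit together with the erythropoietin receptor, and Kit is shut off as red cells mature, while Flt3, Csf1r, Csf3r and Il7r are known for lymphoid, dendritic, macrophage and granulocyte cells.

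The deposited data are peak lists on the mm10 build, and overlapping or touching records were merged into regions. The main list holds peaks of the pooled reads kept by the irreproducible discovery rate (IDR), a measure of how well a peak repeats between a pair of peak sets. Its 24394 regions had a median fold enrichment of 7.57 over local background, by the authors' value. The list of replicate 1 held 18685 regions and that of replicate 2 held 17854. A less strict overlap list of the series held 42936 regions, with a median fold of 4.95. The lists give no read depth. In matched peaks the libraries differed less, with a median absolute log2 ratio of −log10 p of 0.32, than did the pseudoreplicates, at 0.40, which are parts of the pooled reads. Separate origin of the libraries was therefore not visible in the lists, both carry the same donor identifier, and they were counted as 1 sample with no SD. The label was checked against markers: 13 of 13 erythroid genes had an accessible promoter, among them Epor at 9.36-fold, while 45.8% of all protein-coding genes had one. This held for 2 of 10 granulocyte and monocyte genes, 1 of 7 macrophage genes, 0 of 6 mast cell and basophil genes, 1 of 7 B cell genes and 1 of 7 T and NK cell genes. It also held for 4 of 6 megakaryocyte genes, 1 of 8 stem and early progenitor genes and 0 of 4 hepatocyte genes. What part cells of other types have in the receptor regions was not tested, and a region open in few cells cannot be told apart from one weakly open in all.

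In these CFU-E, 3 of the 9 receptor genes had a region in the IDR list of the series. They were Il7r, Il6ra and Ifngr1, with 1 region each, while 55.1% of all protein-coding genes had at least 1. In replicate 1 there were 2 such receptor genes, Il6ra and Ifngr1, against 50.2% of all protein-coding genes. In replicate 2 Ifngr1 alone had a region, against 49.2% of all protein-coding genes. The median was 0 regions per receptor gene and 1 per protein-coding gene in the series list. Thus the receptors sat below the background share in each of these 3 lists, and Ifngr1 was the gene present in every one.

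An accessible promoter, meaning a region within 1 kb of any annotated start, was rarer still. In the series IDR list 1 receptor gene had one, Ifngr1, whereas 45.8% of protein-coding genes did. The count was 1 in replicate 1, against a background of 43.5%, and 1 in replicate 2, against 42.6%. It was again Ifngr1 both times. In the overlap list 2 receptor genes, Il3ra and Ifngr1, had a promoter region, against 52.3% of protein-coding genes.

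Under the less strict overlap list 7 of the 9 genes had a region, against 67.7% of protein-coding genes, a share near that of the receptors. These 11 regions were 1 at Kit, 1 at Csf2rb, 2 at Csf3r, 1 at Il3ra, 1 at Il7r, 3 at Il6ra and 2 at Ifngr1. Flt3 and Csf1r had none in the IDR or the overlap lists. Of the 11 regions, 6 also stood in the less strict lists of both replicates, 2 in that of replicate 1 only and 3 in neither. Over all 42936 regions of the overlap list, 57.8% stood in both and 25.9% in neither. The median fold of the 11 was 5.17, against 4.95 over all regions.

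**Figure D1:**
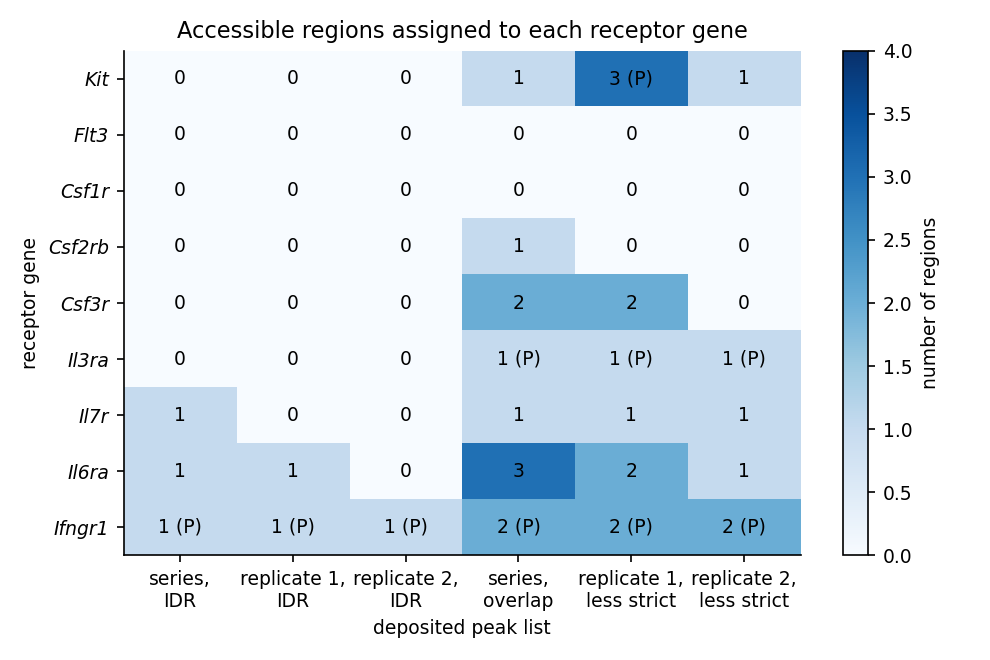
Number of accessible regions assigned to each of the 9 receptor genes (rows) in 6 deposited peak lists (columns), coloured by the number; (P) marks a cell with a promoter region. The IDR columns are nearly empty except for Ifngr1, and Flt3 and Csf1r are at 0 in every column shown.

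Kit, the stem cell factor receptor, spans 81.8 kb at chr5:75574916-75656722 on the + strand and has 8 annotated starts. No region of the main IDR list of the series or of a replicate's IDR list met the rule at Kit. The strongest region near it lay just outside the 100 kb limit, at chr5:75460074-75460944, 114 kb upstream of the first start. This 871 bp region is intergenic, and Kit is its nearest protein-coding gene. Its fold was 6.0 in the series IDR list, where 32.4% of regions had a lower fold. In the less strict lists it had a fold of 6.77 in replicate 1 and 5.45 in replicate 2. Its IDR scores there, 483 in replicate 1 and 316 in replicate 2, were under the 540 that the IDR lists keep, whereas the series score was 850. The peak was thus called in each library and was in the series IDR list, but in neither replicate's own IDR list. In the comparison of the true replicates its score was 884, and the conservative series list kept it as well. An upstream element at which GATA2 is exchanged for GATA1 while Kit is silenced is known from mouse erythroid cells; whether this region is that element was not tested.

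Inside the gene, the overlap list held 1 region in intron 7, at chr5:75624215-75624661, with a fold of 4.78. The replicates gave 4.41 in replicate 1 and 4.58 in replicate 2, both in the less strict lists. Its IDR score was 611 in the comparison of the true replicates, which the conservative list keeps, but 340 in that of the pseudoreplicates, which the main list uses. Whether this intronic region is kept therefore turns on which of those comparisons is used. At the start of Kit, a peak at chr5:75574830-75575030 had a fold of 4.46 in the series list of pseudoreplicated peaks and 5.11 in replicate 1. It was in no list of replicate 2 and in neither the overlap nor the IDR lists, with a score of 502. The older replicated list of the series held it too, at 5.44. A peak in intron 1 had a fold of 4.81 in replicate 1 and was in no list of replicate 2; of the series lists the older replicated one alone held it, at 3.38.

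The summit windows of the upstream and the intron 7 region are shown because both hold a GATA word within reach of a CTG, the composite that the TAL1 and GATA1 complex is known to bind, together with a RUNX word. Each runs 100 bp to either side of the strongest summit on the + strand of mm10, chr5:75460547-75460747 for the upstream region and chr5:75624303-75624503 for the intronic one. Capitals mark matches to the RUNX word, to the CTG-GATA pair and to other GATA words.
Kit upstream region: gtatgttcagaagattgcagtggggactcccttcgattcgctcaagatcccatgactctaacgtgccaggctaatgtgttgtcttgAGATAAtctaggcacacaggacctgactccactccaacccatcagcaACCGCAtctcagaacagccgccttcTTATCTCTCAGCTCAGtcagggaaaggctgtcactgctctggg
Kit intron 7 region: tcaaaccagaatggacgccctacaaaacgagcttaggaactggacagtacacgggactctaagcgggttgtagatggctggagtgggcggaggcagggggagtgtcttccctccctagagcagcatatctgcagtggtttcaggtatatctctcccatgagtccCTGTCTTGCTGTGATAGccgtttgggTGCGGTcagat

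Of the other class III kinases, Flt3, which drives lymphoid and dendritic progenitors, lies at chr5:147330741-147400489 on the − strand and Csf1r, the macrophage CSF-1 receptor, at chr18:61100598-61132149 on the + strand. Neither had a region in the IDR or overlap lists of the series, nor in any list of 1 replicate. The older replicated list of the series, with 190299 regions of a median fold of 3.32, held 15 at Flt3 and 13 at Csf1r. The IDR region closest to Flt3 was 17.9 kb from its start, with a fold of 6.9, and overlapped the promoter of D5Ertd605e. The one closest to Csf1r was 49.1 kb from its nearest start, with a fold of 11.7, in an intron of Hmgxb3. For both genes the nearest region of the IDR list thus lay at a neighbouring gene. The related class III and V kinases Pdgfra, Pdgfrb, Kdr, Flt1 and Flt4 had 0 accessible promoters of 5 in the IDR list, and in the overlap list 1, Pdgfra, with a fold of 4.7.

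Csf2rb, the common beta chain of the IL-3, GM-CSF and IL-5 receptors, lies at chr15:78325752-78353847 on the + strand. In the overlap list it had 1 region in intron 5, at chr15:78340165-78340346, with a fold of 3.5. The region stood in neither replicate's own list. Csf2rb has a near-identical neighbour in mouse, Csf2rb2, and how reads matching both were counted is not given in the sources used here, so the position is uncertain. The closest IDR region lay 57.4 kb from a Csf2rb start, at 10.6-fold, and nearer to Ncf4.

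Il3ra, the alpha chain that binds IL-3 with Csf2rb, lies at chr14:14346275-14356011 on the + strand and had 1 promoter region in the overlap list. It spans chr14:14345504-14345910, 365 bp upstream of the nearest start, and overlaps the antisense gene Gm48860. The fold was 5.17 in the series, 4.21 in replicate 1 and 5.19 in replicate 2. With scores of 359 and 364 in the series comparisons, it was under the IDR limit of 540 although both libraries held it. The closest IDR region was 225 kb away, at the promoter of Psmd6.

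Csf3r, the granulocyte colony-stimulating factor receptor, lies at chr4:126024550-126044440 on the + strand and had no region in its body or at its promoter in the IDR and overlap lists. Its overlap regions were upstream. One, at chr4:125990247-125990466, 34.1 kb from the start, had a fold of 5.35 in the series and 5.41 in replicate 1 and was not in the list of replicate 2. Another, 79.6 kb upstream, had a fold of 2.65 and was in neither replicate's list. Just past the limit, 112 kb upstream, a region at chr4:125912686-125912950 had a fold of 5.11 in the series, 3.51 in replicate 1 and 5.27 in replicate 2. A further one, 61.5 kb upstream, was kept in the list of pseudoreplicated peaks with a fold of 4.14. The closest IDR region to Csf3r, 8.65 kb from one of its starts, was the promoter of Mrps15, at 9.44-fold.

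Of the Csf3r regions, the 3 with the higher folds, at 34.1, 61.5 and 112 kb, each held a match to the CTCF consensus within 27 bp of the summit. CTCF is the factor known to hold chromatin loops and boundaries. Of all distal regions in the overlap list, meaning those outside promoters, 9.58% held a match. That list does not hold the 61.5 kb region, and the 112 kb region lies past the limit of 100 kb. Among the 11 regions counted for the receptors in the overlap list, 1 held a CTCF match, the one at 34.1 kb. The window of the 34.1 kb region is shown with that of the Il3ra promoter, where the word is a KLF word, to set the sequences of 2 weakly open receptor loci side by side. They are chr4:125990266-125990466 and chr14:14345530-14345730 on the + strand of mm10, and capitals mark the CTCF match in the Csf3r window and the KLF match in the Il3ra window.
Csf3r upstream region: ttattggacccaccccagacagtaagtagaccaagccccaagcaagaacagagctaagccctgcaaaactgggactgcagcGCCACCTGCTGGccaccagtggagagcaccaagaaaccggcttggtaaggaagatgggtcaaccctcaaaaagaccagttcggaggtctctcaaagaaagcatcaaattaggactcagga
Il3ra promoter region: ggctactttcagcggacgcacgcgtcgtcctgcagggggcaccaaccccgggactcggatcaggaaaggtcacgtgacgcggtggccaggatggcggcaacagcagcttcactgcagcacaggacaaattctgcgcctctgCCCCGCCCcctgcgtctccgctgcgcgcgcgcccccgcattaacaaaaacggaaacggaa

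Il7r, the alpha chain of the IL-7 receptor that lymphoid progenitors need, lies at chr15:9505788-9530176 on the − strand. Its 1 region was intergenic, at chr15:9489359-9490052, 15.7 kb beyond the 3′ end of the gene and 39.7 kb from its nearest start. The fold was 8.03 in the series IDR list, above 54.4% of regions. In the less strict lists it was 7.81 in replicate 1 and 5.49 in replicate 2. The IDR scores there were 381 in replicate 1 and 496 in replicate 2, under 540, so the region was in neither replicate's IDR list. In the comparison of the true replicates its score was 630, and the conservative list kept it. The Il7r promoter had no region in the IDR or the overlap lists.

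Il6ra, the alpha chain that binds IL-6, lies at chr3:89864059-89913196 on the − strand. Its IDR region lay in intron 9, the last intron of the transcript with most exons, at chr3:89871348-89871775. It was 41.4 kb from a start of Il6ra but 33.5 kb from that of She, so it counted for Il6ra through the gene body. The fold was 6.66 in the series, 5.94 in replicate 1 and 6.05 in replicate 2. In its own list replicate 1 kept it with a score of 540, the lowest the IDR list holds. The list of replicate 2 did not, with a score of 369. In the comparison of the true replicates the score was 1000, and the conservative list kept the region. The overlap list added a region in the same intron with a fold of 3.42 and one in intron 1 with a fold of 1.96. The Il6ra promoter had no region in the IDR or the overlap lists.

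Both of these distal IDR regions held GATA words at their summits, which is why they are shown. Of all distal regions in the IDR list, 49.8% held a GATA word within 100 bp of the summit. In the Il6ra window the GATA word of the CTG pair borders a short run of CAG repeats. The windows are chr15:9489495-9489695 for Il7r and chr3:89871391-89871591 for Il6ra, on the + strand of mm10, with capitals on the GATA words and on the CTG-GATA pair.
Il7r downstream region: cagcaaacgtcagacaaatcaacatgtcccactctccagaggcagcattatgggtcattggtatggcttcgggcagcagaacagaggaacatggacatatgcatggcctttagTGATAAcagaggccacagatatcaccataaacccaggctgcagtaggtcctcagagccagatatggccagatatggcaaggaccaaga
Il6ra intron 9 region: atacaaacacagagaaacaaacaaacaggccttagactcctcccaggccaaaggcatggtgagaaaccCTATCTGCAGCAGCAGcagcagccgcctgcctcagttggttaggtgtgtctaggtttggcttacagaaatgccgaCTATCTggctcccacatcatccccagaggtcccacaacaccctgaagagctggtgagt

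Ifngr1, the ligand-binding chain of the interferon gamma receptor, lies at chr10:19591949-19610229 on the + strand and carried the strongest region of the 9 genes. Its promoter region, chr10:19591386-19592356, is 971 bp long and covers the gene's first start. The fold was 11.3 in the series, 10.7 in replicate 1 and 10.7 in replicate 2. In the series 79.2% of regions had a lower fold, in replicate 1 72.7% and in replicate 2 72.9%. The IDR score was 1000 in the series, 1000 in replicate 1 and 964 in replicate 2. Both libraries therefore placed this promoter among the stronger regions of their lists. A second region in intron 3, at chr10:19601530-19601800, had a fold of 5.82 in the overlap list, 5.49 in replicate 1 and 4.59 in replicate 2. Its score was 700 between the true replicates and 375 between the pseudoreplicates.

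**Figure D2:**
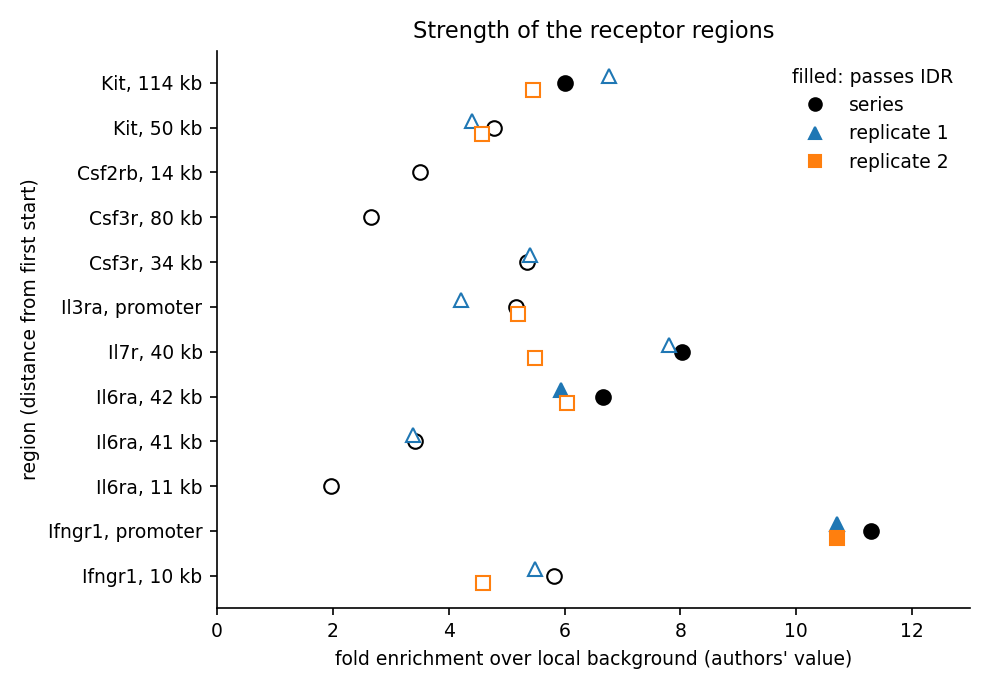
Authors' fold enrichment (x axis, a ratio over local background) of the 11 regions of the overlap list and of the Kit region 114 kb upstream (y axis), in the pooled series (circles), replicate 1 (triangles) and replicate 2 (squares); filled symbols passed IDR in the matching list. Ifngr1's promoter is filled in all 3 and lies at 10.7 to 11.3, and the Il6ra region in intron 9 is filled in 2.

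The promoter of Ifngr1 from RefSeq is shown because it is the only receptor promoter in the IDR lists of both replicates. It spans chr10:19591699-19591998 of GRCm38.p6 on the + strand, from 250 bases before the start to 50 after. Capitals mark KLF words, the CACCC-type and GC-type boxes that KLF1 and other Krüppel-like and SP factors are known to bind. A KLF word was present in 29.7% of the 32851 promoters of the RefSeq table. The table holds 7 of the 9 receptors, and 4 of them, Csf3r, Ifngr1, Il3ra and Kit, have a KLF word there. A word of PU.1, a myeloid and lymphoid factor, is also in 4 of the 7, namely Flt3, Il3ra, Il6ra and Il7r. Over all these RefSeq promoters the PU.1 share was 14.5%. Neither count was tested against its share.
Ifngr1 promoter: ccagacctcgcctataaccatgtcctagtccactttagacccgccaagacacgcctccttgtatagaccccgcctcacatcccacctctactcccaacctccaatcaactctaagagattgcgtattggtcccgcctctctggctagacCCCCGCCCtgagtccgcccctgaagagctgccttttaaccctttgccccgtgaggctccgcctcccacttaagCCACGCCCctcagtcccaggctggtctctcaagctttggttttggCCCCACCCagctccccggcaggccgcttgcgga

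**Figure D3:**
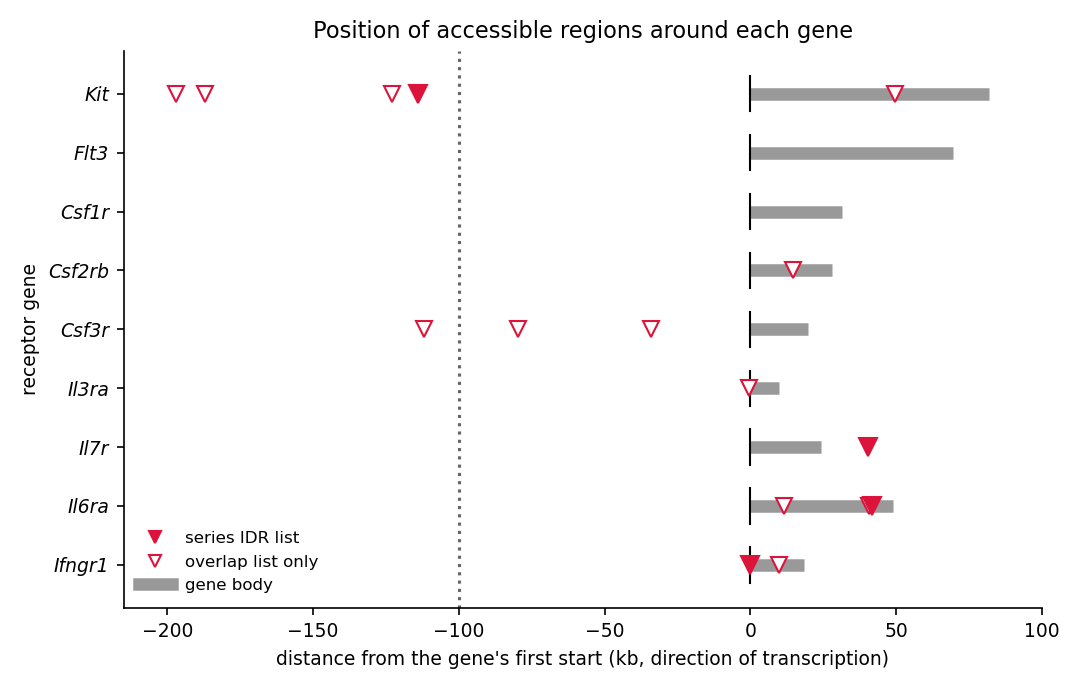
Position of the regions of the IDR list (filled) and of the overlap list only (open) around each receptor gene, as distance in kb from its first start in the direction of transcription; grey bars are gene bodies and the dotted line is the upstream limit of 100 kb. The IDR region of Kit lies just beyond that line, and Flt3 and Csf1r have no mark.

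The words searched in all windows, on both strands, were as follows. GATA was AGATAA or AGATAG or TGATAA or TGATAG, and the CTG-GATA pair was CTG and a GATA word with 7 to 9 bases between, so that each pair also counts as GATA. RUNX was TGTGGT or TGCGGT, PU.1 was AGGAAGT or GGGAAGT, and AP1 was TGAGTCA or TGACTCA. KLF was CCACACCC or CCACGCCC or CCCCACCC or CCCCGCCC, STAT was TTCNNNGAA, ETS was CCGGAAGT, IRF was GAAA and again GAAA after any 2 bases, and CEBP was TTGCACAA or TTGCGCAA. CTCF is given by name. A match is a description of the letters, not a bound site.

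Among the 11 regions of the overlap list, 6 held a GATA word: the Kit intron, the Csf2rb intron, the Il7r region and all 3 of Il6ra. Of all distal regions in that list 42.0% held one, and of all promoter regions 18.3%. Of the 6, the Csf2rb region and the Il6ra region in intron 1, with a fold of 1.96, stood in neither replicate's own list. The other Il6ra regions lie close together in intron 9. The CTG-GATA pair was in 2 of the 11, at Kit and Il6ra, against 10.9% of distal regions. The Kit region 114 kb upstream held it too, and in the IDR list 15.8% of distal regions did. RUNX words were in 2 of the 11, the intronic regions of Kit and Ifngr1, against 20.9% of distal regions. The Kit region 114 kb upstream held one too, and in the IDR list 20.7% of distal regions did. KLF words were in both promoter regions, Il3ra and Ifngr1, against 5850 of the 16693 promoter regions of the list. The CTCF consensus was in 1 of the 11, a Csf3r region, against 9.58% of distal regions. PU.1, the myeloid and lymphoid ETS factor, had a word in 0 of the 11, against 9.44% of distal regions, and the STAT word in 0, against 4.75%. The IRF, CEBP and ETS words were in 0 as well, against 1.74%, 0.613% and 0.438% of distal regions. With 11 regions, counts of 0 at such shares say nothing about the receptors. Within 50 bp of the summit GATA words were in 3 of the 11, against 30.2% of distal regions. The pair was in 1, against 7.95%, and the Kit intron 7 window kept none of its marked words.

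The base composition of the 9 promoters fell into separate ranges. Over 500 bp to each side of the first start, the ratio of observed to expected CpG was between 0.12 and 0.244 for Csf2rb, Il7r, Csf1r and Csf3r. It was between 0.613 and 0.804 for Ifngr1, Kit, Flt3, Il3ra and Il6ra. Of all protein-coding genes under 0.25, 9.02% had an IDR promoter region, and of the 4 receptors there, 0 did. Between 0.5 and 0.75 the share over all genes was 63.2%, and of Kit, Flt3, Il3ra and Ifngr1 it was Ifngr1 alone that had one. At 0.75 and over the share was 80.1%, and Il6ra, at 0.804, had none. The 4 CpG-poor receptors thus belong to a class with few open promoters in these cells. In the IDR list, 4 of the 5 CpG-rich ones lack what most genes of their class have. In the overlap list the share was 71.1% between 0.5 and 0.75, where Il3ra had a promoter region too, and 84.9% at 0.75 and over.

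**Figure D4:**
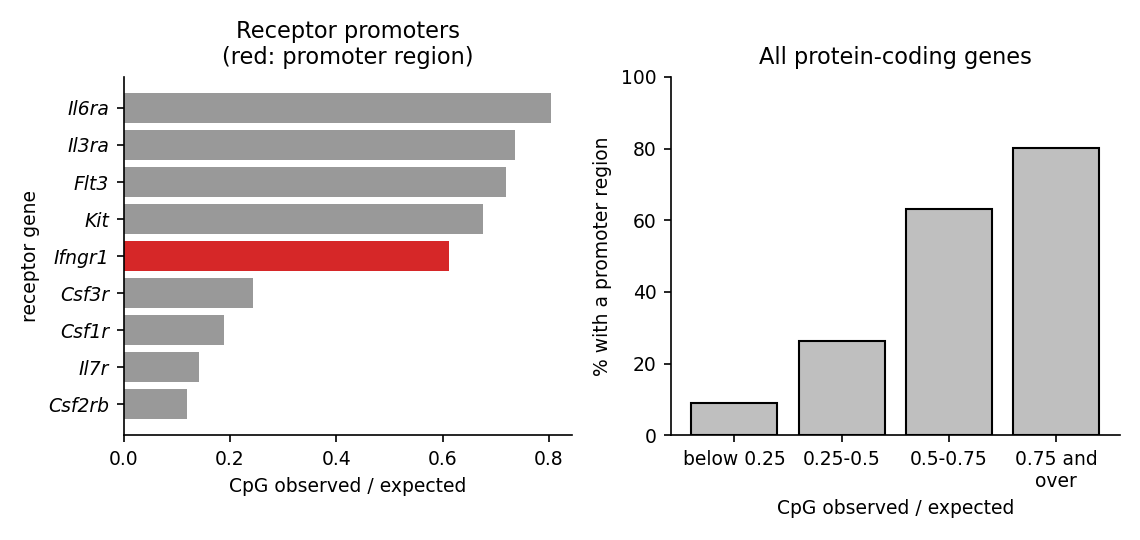
Left, observed over expected CpG within 500 bp of the first start of each receptor gene, with the gene that had an IDR promoter region in red. Right, percentage of all protein-coding genes with such a region, by class of the same ratio, which goes from 9.02% to 80.1%.

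A list of 13 chains held the partners of these receptors and further chains of the families they share. Of the 13, 5 had a promoter in the IDR list, where the share over protein-coding genes was 45.8%. Among the partners were Il6st, the signalling partner of Il6ra, at 13.5-fold, Ifngr2, the partner of Ifngr1, at 9.79, and Crlf2, which pairs with Il7r in the TSLP receptor, at 7.31. The others were Il4ra at 12.7 and Il15ra at 4.65, which pair with none of the 9. Of 22 other cytokine receptors, 8 had one. Ifnar1 had a fold of 14.0, Il10rb of 12.5, Tgfbr1 of 11.8, Ifnar2 of 10.6, Epor of 9.36 and Il17ra of 7.87. Both chains of the interferon gamma receptor and both of the type I interferon receptor had an open promoter, whereas of the IL-6 and TSLP receptors it was the partner chain only. An open partner was not the rule. Csf2ra, Csf2rb2, Il2rg and Il5ra, of the same list of 13, had no promoter region in the series IDR list. In the overlap list Csf2ra had one, at 5.01-fold.

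The same share of 45.8% is the background for the remaining lists. Of 14 ligands, 4 had an IDR promoter region: Tslp at 10.7-fold, Flt3l at 8.65, Epo at 7.6 and Csf3 at 6.37. Of 15 JAK-STAT and interferon response genes 13 had one, among them Jak1 at 13.5, Stat2 at 13.3, Tyk2 at 12.3, Stat3 at 11.6 and Irf9 at 9.92. Of 16 genes that carry the Kit signal 13 had one, among them Pik3ca, a PI3-kinase subunit, at 14.2, Fyn at 10.6, Grb2 at 10.6, Plcg1 at 10.4 and Mapk3 at 9.46. Of 11 receptor inhibitors 7 had one, with Pias1 at 14.5, Usp18 at 13.8, Cblb at 12.3, Cbl at 8.55, Cish at 8.15 and Sh2b3 at 6.79.

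**Figure D5:**
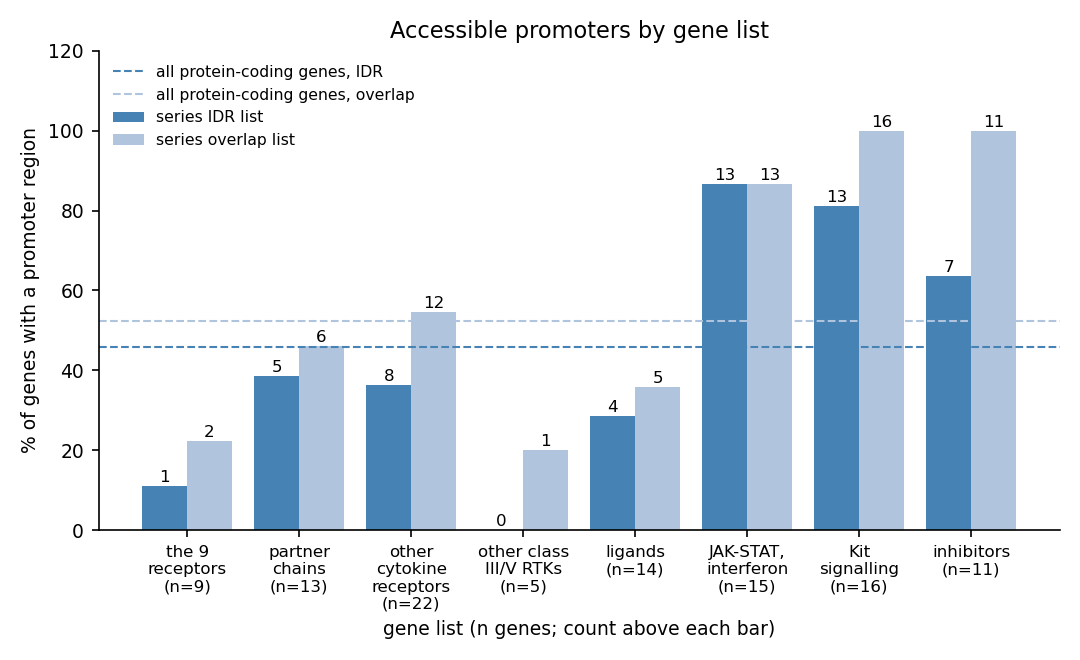
Percentage of genes with a promoter region in the series IDR list (dark bars) and the overlap list (pale bars) for the 9 receptors and 7 related gene lists, with the count above each bar; dashed lines are all protein-coding genes, 45.8% and 52.3%. The receptors stand at 1 and 2 of 9, below both lines.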

How the data were processed

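The files are ATAC-seq peak lists on mm10, per the deposited file listing, called by the authors for each replicate and for the pooled reads. The sources used here name no aligner, peak caller or version, nor how Tn5 offsets and duplicates were treated. In the deposited lists the fold enrichment is a ratio over local background, the p-value is given as −log10, and the IDR score of the authors is at least 540 in the thresholded lists. Each list has its own scale, so folds and scores of 1 region in several lists are given side by side with no comparison; the −log10 p of matched records was compared between libraries. Peaks carry no depth, so no intervals were computed.

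Records were merged into regions with Python 3.11.15, numpy 2.4.6 and pandas 2.3.3, on GENCODE M21 (GRCm38.p6). Of the overlapping records, the one with the highest fold gave the summit. A promoter region is one that comes within 1 kb of an annotated start of the gene. Regions were assigned to genes by body or nearest start within 100 kb, and merging and assignment were tested on simulated data. The 9 receptors were compared with 21938 protein-coding genes by counts only, and no p was computed, because 1 sample and a chosen list allow none. Motif words were counted within 100 bp of the summit, 201 bp in all. The members and lists were chosen with earlier results of these data known, and the CpG classes were added after the values were seen. All 9 receptors are described; of each other list up to 6 genes with a promoter region are named, the highest folds first, and 2 of these genes are not reported here. The alternatives were other lists, limits and windows. Signal tracks were not used here.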

Additional observations from a re-analysis of the deposited data

How the results depend on the processing

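The counts depend most on the list. For the regions at the 9 receptors (3 in the main list), the overlap list gave 11, the conservative list 5, the pseudoreplicated list 11 and the older replicated list, whose 190299 regions have a median fold of 3.32, 115. The receptors with a region, 3 in the main list, numbered 4 in the conservative list, 7 in the overlap list, 7 in the pseudoreplicated list and 9 in the older list. In the same order, the shares of all protein-coding genes were 55.1%, 55.0%, 67.7%, 67.5% and 86.6%. The receptors were thus below the share in the main and conservative lists, but not in the others. In the older list the median was 13 regions per receptor gene and 5 per protein-coding gene. Those with a promoter region, 1 in the main list, numbered 2 in the overlap, 3 in the pseudoreplicated and 7 in the older list. The shares of all protein-coding genes were 45.8%, 52.3%, 52.1% and 68.8% in that order. Leaving out 1 replicate gave 1 to 2 regions at 1 to 2 receptors, and 1 promoter: without replicate 1 the Il6ra and Il7r regions were lost, without replicate 2 the Il7r region. Limits of 50 and 200 kb gave 3 and 4 receptors, the nearest start alone 2, and other promoter windows 1. The cause of these shifts was not tested. No paired analysis was possible because the libraries form 1 group and no test was run. Read depth is unknown, so a missing region means only that no peak was kept.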
